A study of Canis lupus familiaris with 18 samples.

Results

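The cell division genes are a list of 49 genes that act in DNA replication and in mitosis. They were followed in 18 canine primary osteosarcomas, tumours of bone, of which 9 came from dogs with a normal and 9 from dogs with an increased serum concentration of alkaline phosphatase (ALP). Tumour tissue was snap frozen, total RNA was hybridised to 1 array per tumour, and the series held no reference tissue and no treated group. A gene was represented by the probe set annotated to its symbol alone, and by the one of highest mean over the 18 arrays where there were several. This gave a probe set for 43 of the 49 genes, drawn from 91 probe sets, among 15115 genes with such a probe set in all. For 19 of the 43 the chosen probe set was of the _s_at or _x_at type, whose probes may also match related transcripts, so their values are less certain. MKI67, CCNB1, BUB1, KIF20A, CENPE and MAD2L1 had no probe set annotated to them alone and were not analysed here. CDCA8, a subunit of the chromosomal passenger complex, had a mean of 6.13, below the filter on dim probe sets at 6.15, and was described but not tested. The 42 genes tested comprised 17 genes of S phase, 24 of the 31 genes of G2 and mitosis, and EZH2, which was counted with neither.

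A dividing cell copies its DNA in S phase and separates the copies in mitosis. E2F factors switch on the genes for the helicase, the clamp and the nucleotide supply before replication, and FOXM1 with related factors switches on the cyclins, kinases and spindle proteins later, so that the mRNA of both sets is abundant in cycling cells and scarce in resting ones. In a piece of tumour the level of these mRNAs depends largely on how many cells are in cycle, and pathologists use several of their proteins to grade growth.

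Levels are given as log2(signal + 16), where 16 was added to the deposited signal to damp dim probe sets, and a difference of 1 on this scale is a doubling of bright signals. Replicate numbers are the tissue numbers in the labels and set no order. The labels do not say more than that the tumours came from patients of the 2 groups, and the precision was limited by 9 arrays a group. Array medians of the deposited values lay between 6.25 and 6.31 and upper quartiles between 8.0 and 8.27. Among markers of bone-forming cells, the matrix genes COL1A1 (12.75 to 14.88) and SPARC (13.52 to 14.43) were bright in every tumour, while IBSP spanned 4.85 to 14.21 and ALPL 6.50 to 13.57. The more specific markers were dimmer and below the filter in at least 1 tumour each, with RUNX2 between 6.04 and 8.47 (median 7.30), DMP1 between 6.06 and 9.33 (7.74) and PHEX between 5.01 and 9.59 (6.17). BGLAP, which encodes osteocalcin, spanned 6.29 to 12.41 (8.60). The 3' minus middle difference of the actin control probe sets, a measure of RNA integrity, ran from 1.19 to 1.76 with normal ALP and from 1.44 to 2.17 with increased ALP. Increased ALP replicates 3 and 6 stood apart by their BioB spike-in signal, at 10.34 and 9.89.

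The cell division genes varied together and widely from tumour to tumour. A member score, the mean over the 42 genes of each tumour's log2 difference from the mean of all 18 tumours, ran from -1.56 in normal ALP replicate 3 to 0.96 in normal ALP replicate 2, a span of 5.73-fold. The SD of the score was 0.55, and 0.40 without normal ALP replicate 3. In a bulk sample, fewer cycling cells and less of these mRNAs per cell cannot be told apart. Single members had a median SD of 0.68 over the 18 tumours, between 0.14 and 0.93, against a median of 0.35 over all 10717 genes tested. The median SD was 0.58 over the S phase genes and 0.74 over the G2/M genes. The SDs of CENPF, CCNA2 and TOP2A were 0.93, 0.88 and 0.88, and those of UBE2C, E2F1 and CENPA were 0.14, 0.26 and 0.31. A dimmer probe set of CENPA had an SD of 0.59.

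Between the extremes the tumours of both groups were interleaved. Normal ALP replicate 8 followed the highest tumour at 0.50, then increased ALP replicates 4 and 5 at 0.40 and 0.36 and normal ALP replicate 5 at 0.31. At the low end, increased ALP replicate 7 had a score of -0.83 and increased ALP replicate 1 of -0.34. In normal ALP replicate 2, 40 of the 42 genes lay above their 18-tumour mean, and in normal ALP replicate 3 none did (0 of 42). Normal ALP replicate 3 held the lowest value of 37 genes, or 88.1%, against 7.54% of the other genes tested. Normal ALP replicate 2 held the highest value of 25 genes, or 59.5%, against 10.9% of the other genes. The lowest value of GINS1, RRM1, E2F1 and EZH2 was in increased ALP replicate 7, and that of UBE2C in normal ALP replicate 6.

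**Figure D1:**
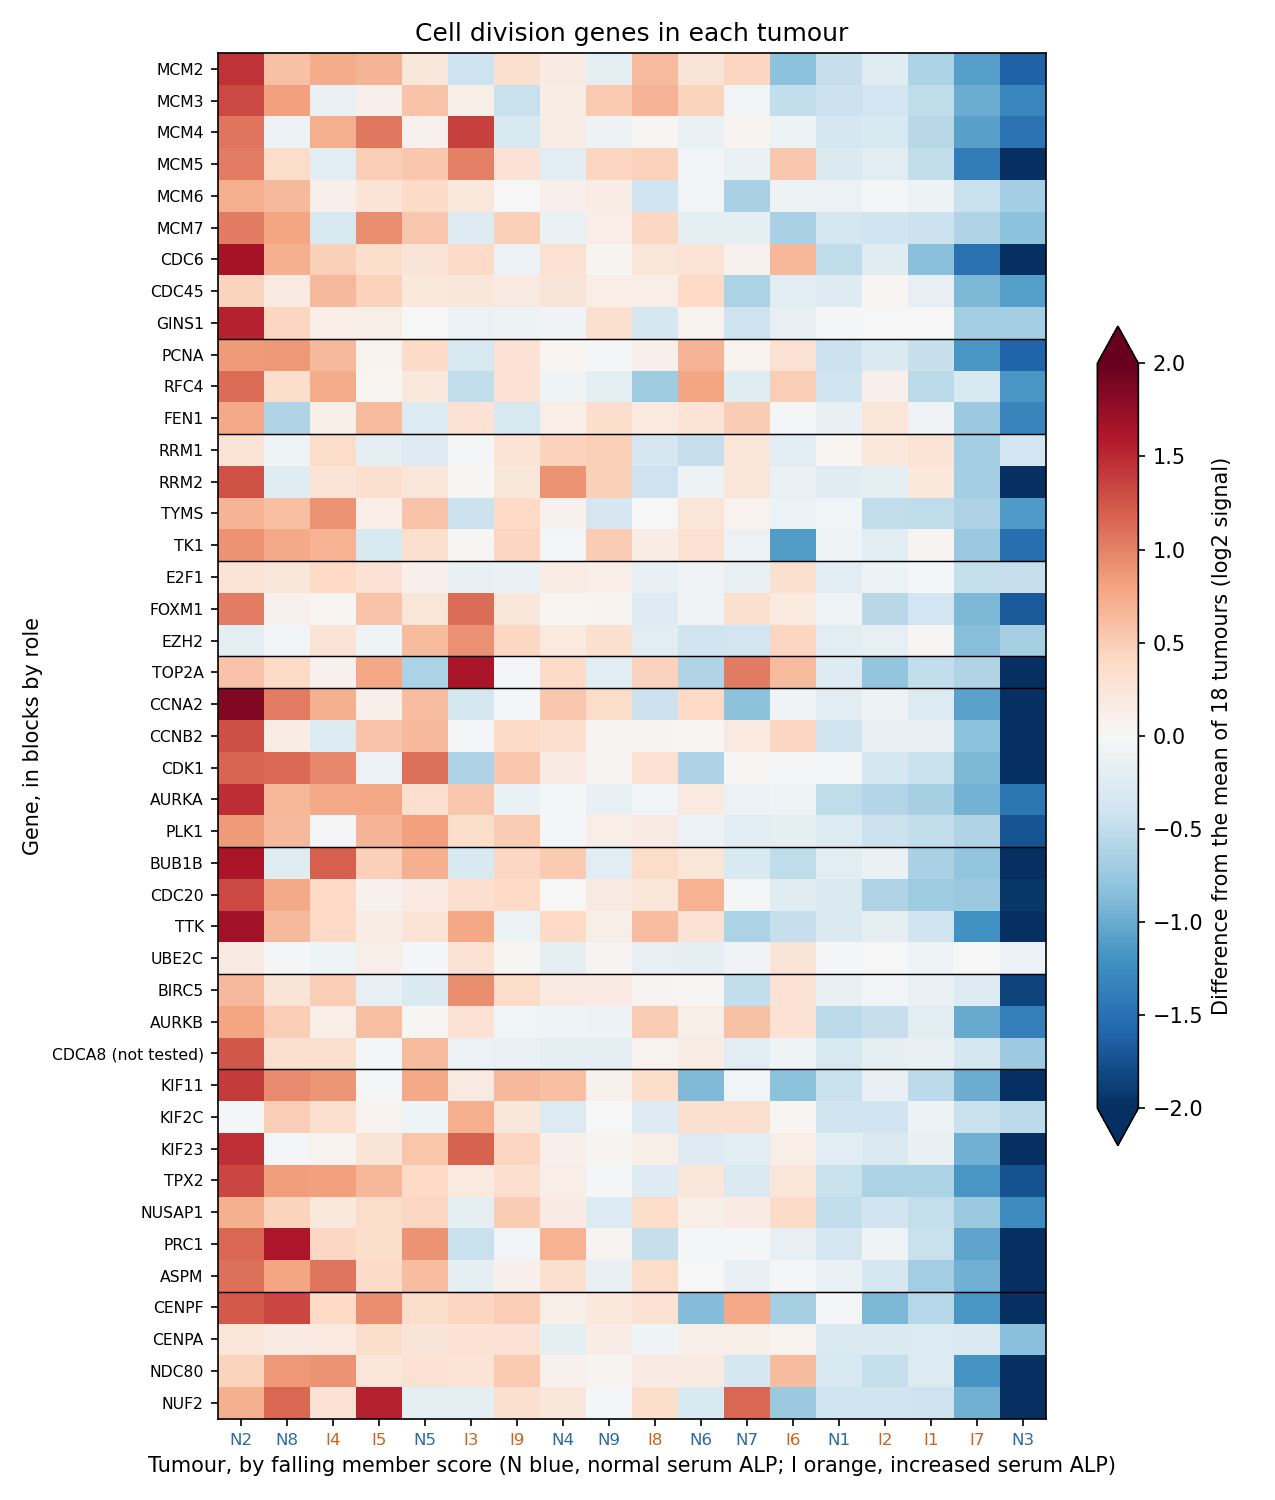
Each cell shows the difference of 1 gene in 1 tumour from that gene's mean over 18 tumours (log2 signal, colour scale from blue to red), with 43 genes in rows by role and tumours in columns by falling member score. The column of normal ALP replicate 2 (N2) is red for nearly all genes, that of normal ALP replicate 3 (N3) is blue throughout, and the row of UBE2C is close to white.

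The genes that load and open the replication helicase followed the common pattern. MCM2 to MCM7 encode the 6 subunits of the helicase ring. MCM5 was at 8.13, 10.21 and 11.29 (lowest, median and highest) with normal ALP and at 8.86, 10.56 and 11.28 with increased ALP. MCM3 was at 7.38, 9.13 and 10.01 with normal ALP and at 7.70, 8.31 and 9.36 with increased ALP. Both groups overlapped over most of their range for both genes, and the lowest and the highest tumours of MCM3 were both of the normal ALP group. CDC6, which loads the ring onto origins, was at 5.51 in normal ALP replicate 3, below the filter, and at 9.45 in normal ALP replicate 2. MCM6 had a mean of 12.62 and spanned 11.95 to 13.35, a 2.63-fold range of signal. GINS1, a subunit of the complex that activates the helicase, was at 8.60, 9.28 and 10.82 with normal ALP and at 8.59, 9.18 and 9.41 with increased ALP. Its range in the normal ALP group came mainly from normal ALP replicate 2, at 10.82, since the next tumour was at 9.70. CDC45, which travels with the helicase, spanned 5.95 to 7.69, with its lowest value below the filter.

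Among the genes of the fork, PCNA, the sliding clamp that holds polymerases on DNA, was at 10.11, 11.78 and 12.57 with normal ALP and at 10.54, 11.77 and 12.36 with increased ALP. The medians differed little, and the lowest and the highest tumour were normal ALP replicates 3 and 8. RFC4, part of the clamp loader, spanned 9.45 to 11.74, and FEN1, the flap endonuclease that finishes Okazaki fragments, 7.49 to 9.57. Of the genes that supply nucleotides, the subunits of ribonucleotide reductase differed from each other. RRM2, whose protein is made in S phase, spanned 8.13 to 11.60, an 11.7-fold range of signal. RRM1, whose protein is kept through the cycle, spanned 9.56 to 10.71, a 2.25-fold range. The RRM2 signals of the 9 tumours with increased ALP lay close together, between 9.64 and 10.64, inside the range of the other group. TYMS, thymidylate synthase, spanned 9.92 to 11.96, and TK1, thymidine kinase, 5.97 to 8.37, with its lowest value below the filter.

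The 3 regulators differed in range. FOXM1, the transcription factor of G2/M genes, was at 6.83, 8.56 and 9.53 with normal ALP and at 7.61, 8.54 and 9.63 with increased ALP. E2F1, an activator of S phase genes, stayed within 6.39 to 7.27, close to the filter at 6.15. EZH2, the histone H3 lysine 27 methyltransferase and an E2F target, spanned 7.93 to 9.70, with the highest value in increased ALP replicate 3 and the lowest in increased ALP replicate 7. TOP2A, the topoisomerase that untangles sister chromatids and the target of doxorubicin, was at 9.48, 11.61 and 12.87 with normal ALP and at 11.05, 11.92 and 13.46 with increased ALP. All tumours but normal ALP replicate 3 were at or above 11.05, and the highest was increased ALP replicate 3.

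The cyclins and kinases of mitotic entry had wide ranges. CCNA2, the cyclin of S phase and G2, was at 6.55, 9.20 and 10.65 with normal ALP and at 7.72, 8.69 and 9.51 with increased ALP. CDK1, the kinase that drives entry into mitosis, was at 7.22, 9.61 and 10.72 with normal ALP and at 8.65, 9.43 and 10.52 with increased ALP. CCNB2, a partner of CDK1, spanned 7.62 to 11.22. In each of these genes the normal ALP group held both ends of the range, in replicates 3 and 2, and the increased ALP group lay inside it. AURKA, which matures the spindle poles, spanned 7.23 to 10.15, and PLK1, which acts from mitotic entry to division of the cytoplasm, 6.72 to 9.29. Among the checkpoint genes, TTK and BUB1B, kinases that delay anaphase until chromosomes are attached, spanned 5.52 to 9.28 and 5.98 to 9.79, with lowest values below the filter. CDC20, the activator of the anaphase-promoting complex, spanned 8.25 to 11.51, a 10.0-fold range of signal. UBE2C, the ubiquitin-conjugating enzyme of that complex, spanned 1.45-fold, from 7.24 to 7.73.

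Each gene of the chromosomal passenger complex, the kinetochore and the spindle had its lowest value in normal ALP replicate 3. BIRC5 (survivin) was at 7.69, 9.57 and 10.19 with normal ALP and at 9.28, 9.60 and 10.47 with increased ALP, and AURKB, the kinase of the complex, spanned 8.68 to 10.83. CDCA8 was above the filter of 6.15 in only part of the tumours, with a range of 5.40 to 7.37 whose ends were again normal ALP replicates 3 and 2. At the kinetochore, NDC80 and NUF2, which bind microtubules as 1 complex, spanned 8.27 to 11.24 and 6.97 to 10.60. CENPF, a large protein of the outer kinetochore, spanned 6.34 to 10.02. CENPA, the histone H3 variant of the centromere, spanned 7.78 to 8.96, but 6.42 to 8.56 at its other probe set. On the spindle, KIF11, the motor that pushes the poles apart, spanned 5.55 to 8.94 and KIF23, a motor of the midzone, 6.87 to 10.59. PRC1, which bundles midzone microtubules, had its highest value of 10.14 in normal ALP replicate 8. ASPM, a protein of the spindle poles, spanned 6.44 to 9.64, TPX2, the activator of AURKA, 6.06 to 9.13, and NUSAP1 8.56 to 10.53. The lowest values of KIF11 and TPX2 were below the filter. KIF2C, which takes apart microtubule ends, spanned 6.39 to 7.64.

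**Figure D2:**
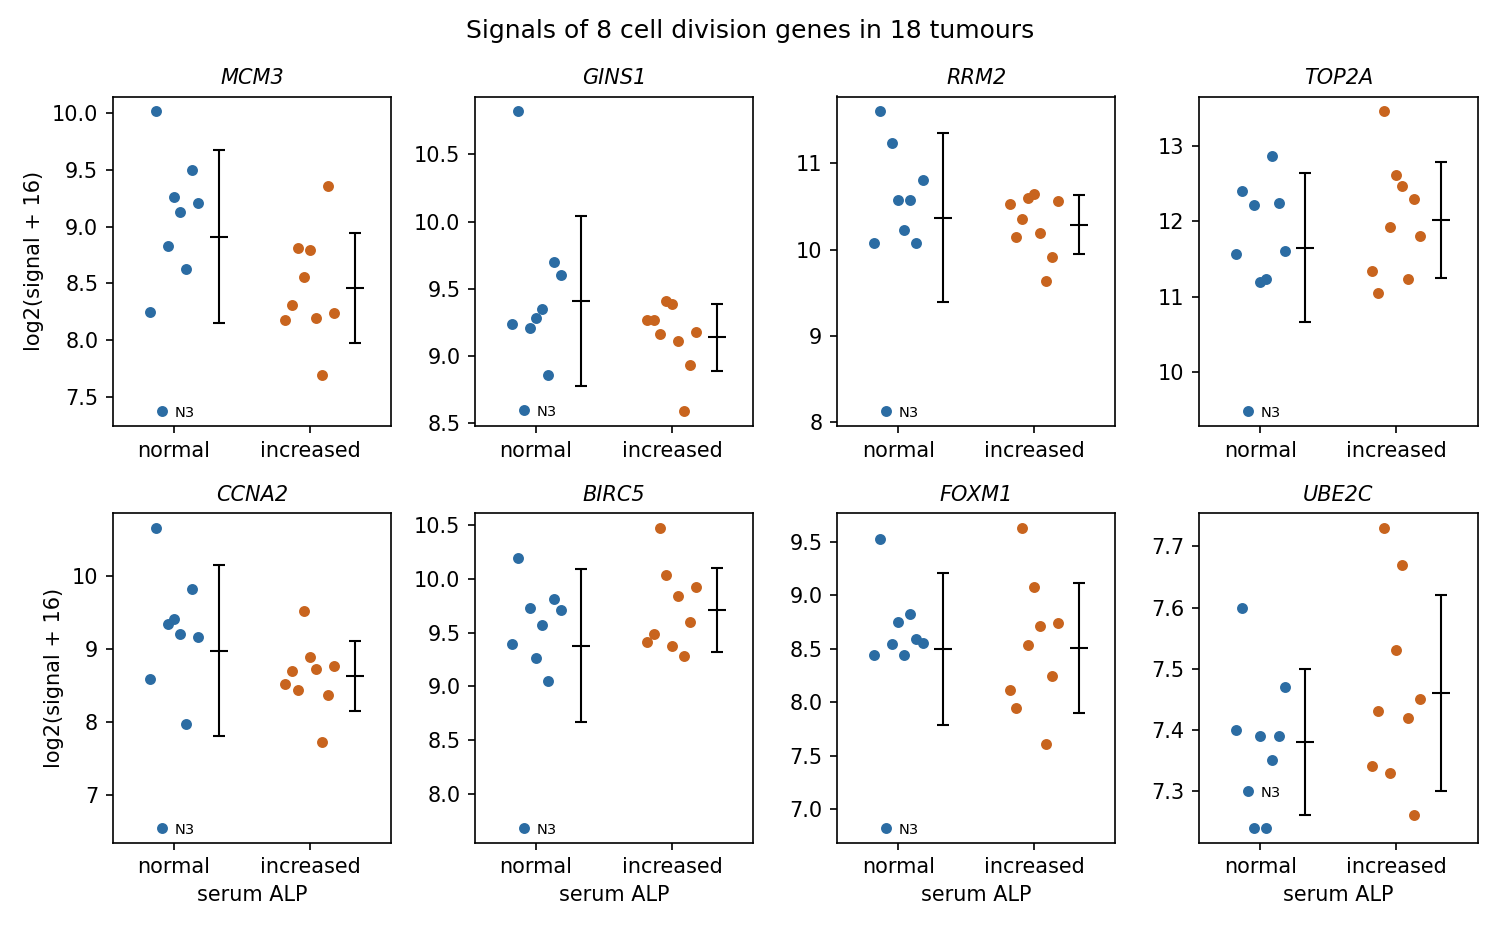
Signals of 8 genes, as log2(signal + 16), in the 9 tumours with normal (blue) and the 9 with increased serum ALP (orange), with the mean and SD of each group as black bars and normal ALP replicate 3 marked N3. N3 is the lowest tumour of its group except for UBE2C, and the groups overlap for each gene.

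Normal ALP replicate 3 was an outlier by Dixon's test in its own group for 14 of the 43 measured genes, on the low side each time. They were MCM5, RRM2 and TK1 of the S phase genes and TOP2A, CCNB2, BIRC5, PLK1, CDC20, KIF23, CENPA, NDC80, NUF2, FOXM1 and ASPM of the G2/M genes. In FOXM1, for example, it was at 6.83 where the next tumour of the group was at 8.44, and in RRM2 at 8.13 where the next was at 10.08. The same test found normal ALP replicate 2 high for GINS1, and no tumour of the increased ALP group for any member. This made 15 outliers in 86 pairs of gene and group, where chance gives about 5%. The members share their tumours, so these are not separate observations. The array of normal ALP replicate 3 had an upper quartile of 8.20, an actin difference of 1.39 and a BioB signal of 9.00, each within the range of the other arrays.

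Genes of S phase and of G2/M gave the same order of tumours to a large extent. The S phase score ran from -1.28 to 0.97 with an SD of 0.48, and the G2/M score from -1.79 to 1.01 with an SD of 0.61. Over the 18 tumours the scores correlated with Pearson's r 0.97 and Spearman's rho 0.90. Within the normal ALP group r was 0.98 (n = 9), within the increased ALP group 0.96 (n = 9), and without increased ALP replicate 7 and normal ALP replicate 3 it was 0.93 (n = 16). Both scores come from the same arrays, so these values are descriptions. The S phase score minus the G2/M score had an SD of 0.18. It was lowest in normal ALP replicate 8 at -0.24 and highest in normal ALP replicate 3 at 0.50, where the G2/M genes lay further below their mean than the S phase genes. This was also so, by less, in increased ALP replicates 2 (S phase -0.15, G2/M -0.36) and 1 (-0.28, -0.40) and in normal ALP replicate 1 (-0.26, -0.28). Without normal ALP replicate 3 the difference ran from -0.24 to 0.21, and its correlation with the member score went from -0.72 (n = 18) to -0.44 (n = 17). The SDs of the S phase and G2/M scores were then 0.37 and 0.43. The member score holds the G2/M genes, whose score had the larger SD, so a negative correlation is built into this comparison.

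**Figure D3:**
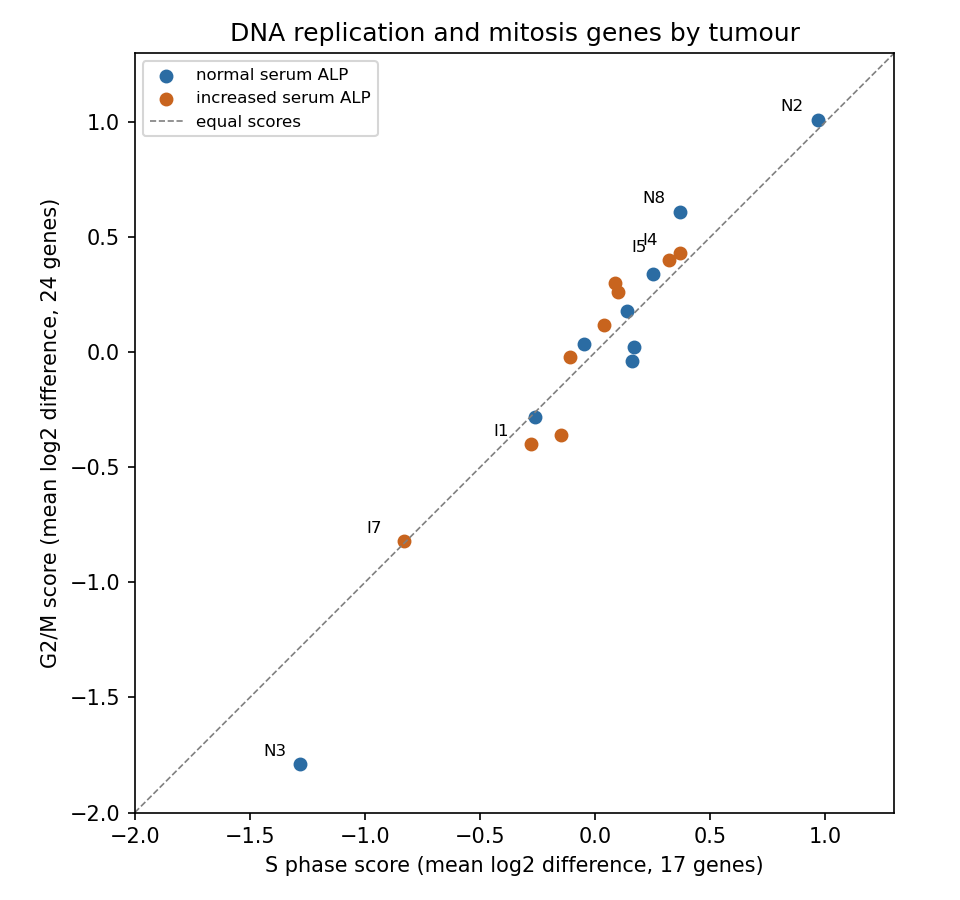
The mean log2 difference from the 18-tumour mean over 17 S phase genes (horizontal axis) and over 24 G2/M genes (vertical axis) in each tumour, with normal serum ALP in blue and increased in orange. The points follow the dashed line of equal scores, except that normal ALP replicate 3 (N3) lies below it, at -1.28 and -1.79.

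Pairs of members had a median r of 0.71 over the 18 tumours (861 pairs), and 709 pairs, or 82.3%, were over 0.5. The median was 0.67 within the S phase genes, 0.78 within the G2/M genes and 0.71 between the sets. The closest pairs were AURKA with its activator TPX2 at 0.96, and FOXM1 with KIF23 at 0.94. The first principal component held 75.3% of the members' variance and the second 6.18%. Without normal ALP replicate 3 the first component held 61.9% and the median r of pairs was 0.58. Set against the mean of the other members, a gene had a median r of 0.87, and 35 of 42 were over 0.7. Of the 10675 other genes tested, 2.49% were over 0.7 with the member score. Without normal ALP replicate 3 these were 31 of 42 members and 2.16% of the other genes.

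Some members followed the others less closely. TPX2, CDC6 and ASPM had r of 0.96, 0.95 and 0.95 with the mean of the other members, while UBE2C had 0.29, RRM1 0.41, EZH2 0.51 and KIF2C 0.58. FEN1 was at 0.69, and RFC4 and TOP2A at 0.70. UBE2C, KIF2C and RRM1 were also among the members of small range, with SDs of 0.14, 0.35 and 0.34. All 5 of the lowest pairwise values, from -0.06 with TK1 to 0.07 with BUB1B, involved UBE2C. UBE2C had 2 other probe sets, both below the filter, with means of 5.99 and 5.75, and the dimmer of them had r of 0.84 with the member score. In EZH2 the highest tumour was increased ALP replicate 3 and normal ALP replicate 2 was below the mean, as the plot of genes by tumour shows.

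No cell division gene was called different between the serum ALP groups. In limma's moderated test of increased minus normal ALP, 0 of the 42 members were called at a Benjamini-Hochberg adjusted p under 0.05, with 0.85 as their smallest value. The background was the same, with 0.0% of 25754 probe sets called. At an unadjusted p under 0.05 there were 0 of 42 members, against 6.14% of all probe sets and 4.86% of the 10717 genes tested. Without normal ALP replicate 3 there were 3 of 42 (MCM3, PRC1 and CCNA2, all negative, with adjusted p from 0.548 to 0.617), against 7.99% of all probe sets. The difference was positive for 17 members and negative for 25, with a median of -0.0674, beside 0.0128 over all genes tested. It was positive for 4 of 17 S phase genes (median -0.11) and for 12 of 24 G2/M genes (median -0.00638). The member score was 0.024 ± 0.69 (SD, n = 9) with normal and -0.024 ± 0.40 (SD, n = 9) with increased ALP. Leaving out normal ALP replicate 3 moved the median over members to -0.27, and leaving out replicate 2 of that group moved it to 0.0708, so its sign rested on single tumours.

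**Figure D4:**
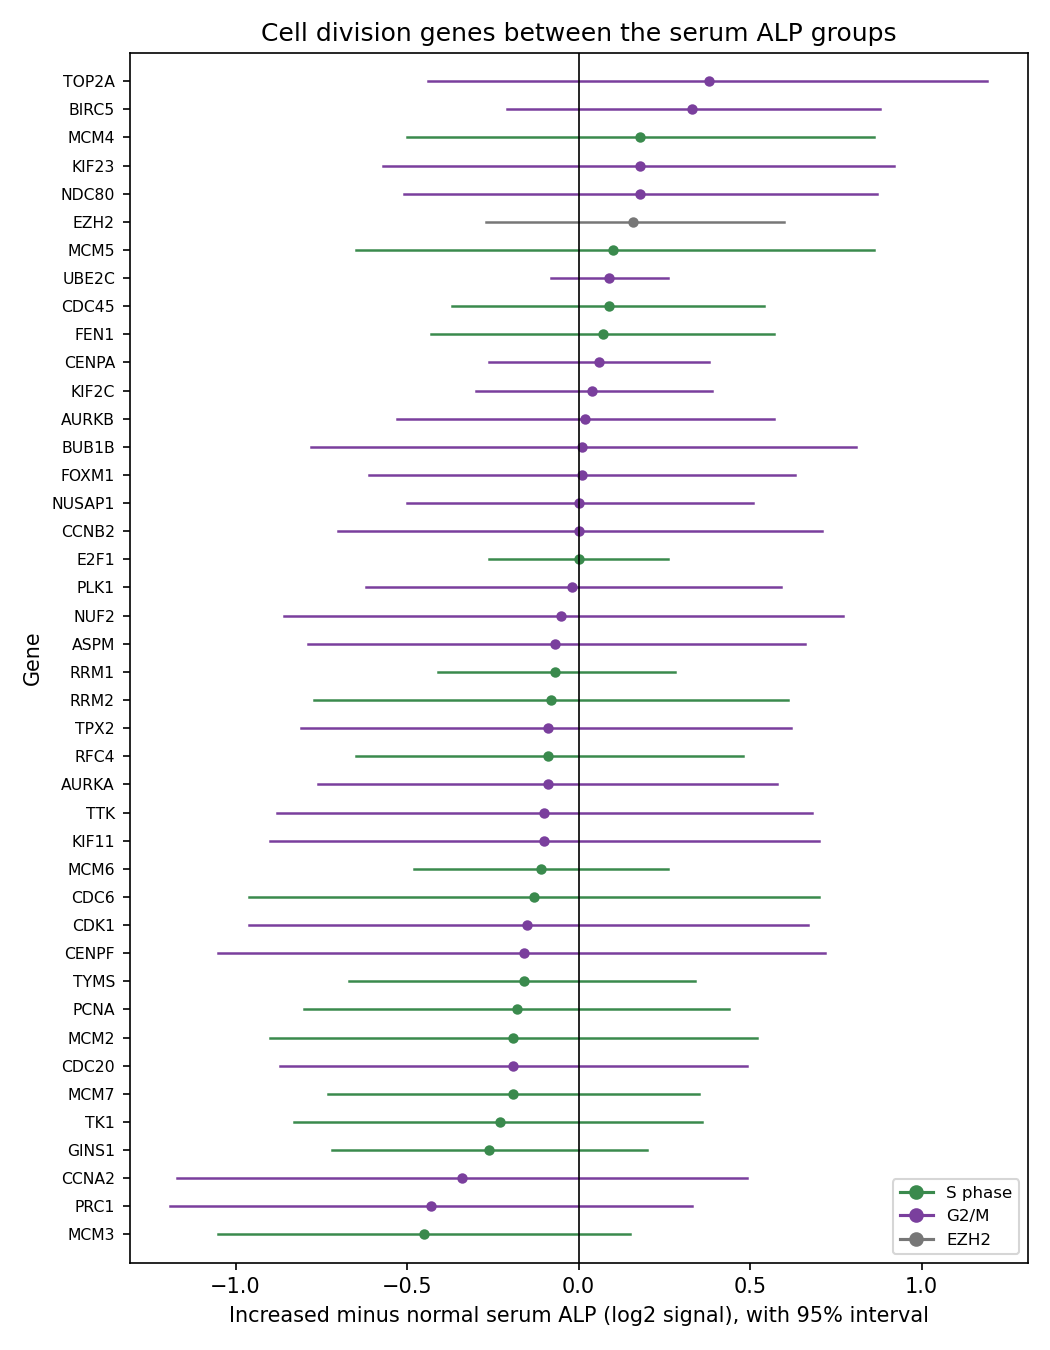
Difference of increased minus normal serum ALP for each of 42 genes (points, log2 signal) with its 95% interval (lines) from limma, for S phase genes (green), G2/M genes (purple) and EZH2 (grey). Every interval contains 0.

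TOP2A, a usual marker of cells between S phase and mitosis, had 11.65 ± 0.99 (SD, n = 9) with normal and 12.02 ± 0.77 (SD, n = 9) with increased ALP. TOP2A thus differed by 0.38 ± 0.39 (SE), and the 95% interval of -0.44 to 1.19 allowed folds from 0.738 to 2.29. Its adjusted p was 0.90 in limma and its exact two-sided permutation p 0.395, and 6 of 9 tumours with increased ALP lay above the mean of the other group. It stood at -0.27 once the actin measure entered the model and at 0.11 without increased ALP replicates 3 and 6.

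Of the other positive differences, those of smallest p were BIRC5, UBE2C, EZH2 and NDC80. BIRC5 differed by 0.33 ± 0.26 (SE, adjusted p = 0.87 in limma), with 7 of 9 tumours with increased ALP above the mean of the other group, but by 0.12 without normal ALP replicate 3 and by 0.0912 at its other probe set. UBE2C differed by 0.09 ± 0.08, EZH2 by 0.16 ± 0.21 and NDC80 by 0.18 ± 0.33 (SE). EZH2 was at -0.00466 without increased ALP replicates 3 and 6, and NDC80 at -0.0654 without normal ALP replicate 3.

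The negative differences of smallest p were those of MCM3, GINS1, PRC1, CCNA2 and TK1. MCM3 was at 8.91 ± 0.76 (SD, n = 9) with normal and 8.46 ± 0.48 (SD, n = 9) with increased ALP. This gave -0.45 ± 0.29 (SE), a 95% interval of -1.05 to 0.15 and an adjusted p of 0.85 in limma, with 8 of 9 tumours with increased ALP below the mean of the other group. Its other probe sets above the filter, with means of 6.37 and 6.25, gave -0.15 and -0.08, and the mean over its probe sets -0.16. GINS1 was at -0.26 ± 0.22 and at -0.0867 without normal ALP replicate 2, its outlying tumour. PRC1 was at -0.43 ± 0.36, CCNA2 at -0.34 ± 0.39 and TK1 at -0.23 ± 0.28 (SE). CCNA2 was at -0.64 when normal ALP replicate 3 was left out, and at -0.13 when replicate 2 of that group was. PRC1 ran from -0.72 to -0.26 when single tumours were left out (normal ALP replicates 3 and 8), and TK1 from -0.43 to -0.11 (normal ALP replicate 3 and increased ALP replicate 6). With the actin measure in the model PRC1 was at -0.20, CCNA2 at -0.0752 and TK1 at -0.0764. The adjusted p of these 5 genes ran from 0.85 to 0.912 in limma.

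Where a gene had several probe sets, they agreed on the order of tumours more than on the group difference. Of 48 other probe sets, 33 from 25 genes were above the filter, and their median r with the first probe set was 0.89, from 0.64 to 0.99. The group difference had the opposite sign in 11 of the 33, and none had an unadjusted p under 0.05 in limma (0 of 33). The other probe set lay below the first in its difference in 25 of 33 pairs, or 75.8%, with a median of -0.14. This was also so in 70.7% of 8023 such pairs of all other genes, with a median of -0.0925. Over the 25 members with a further probe set above the filter, the first probe sets gave 11 positive and 14 negative differences, and the next ones 3 positive and 22 negative, with medians of -0.0655 and -0.18.

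TOP2A showed this most. Its other probe set had 8.84 ± 1.05 (SD, n = 9) with normal and 8.42 ± 0.92 (SD, n = 9) with increased ALP, a difference of -0.42 ± 0.43 (SE, adjusted p = 0.90 in limma) where the first gave 0.38. The tumour of the highest first probe set, increased ALP replicate 3, was at rank 5 on the other. The gap between the first and the other TOP2A probe set correlated with the actin difference at r 0.85 over 18 tumours, at 0.26 within the normal and 0.89 within the increased ALP group. RRM2 differed by -0.08 at its first and by -0.76 ± 0.36 (SE, adjusted p = 0.81 in limma) at its other probe set, with r of 0.77 between their gap and the actin difference. Over the 33 pairs of members the median r of the gap with the actin difference was 0.48, against 0.29 over the pairs of other genes. The part of RNA integrity in these differences was not tested, and the actin difference itself differed between the groups. The member score had r of 0.01 (rho -0.14) with the actin difference and -0.28 (rho -0.31) with the same measure of the GAPDH control. With the BioB signal r was -0.09 (rho -0.33), with the array upper quartile 0.16 (rho 0.34) and with the array median -0.17 (rho -0.03).

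**Figure D5:**
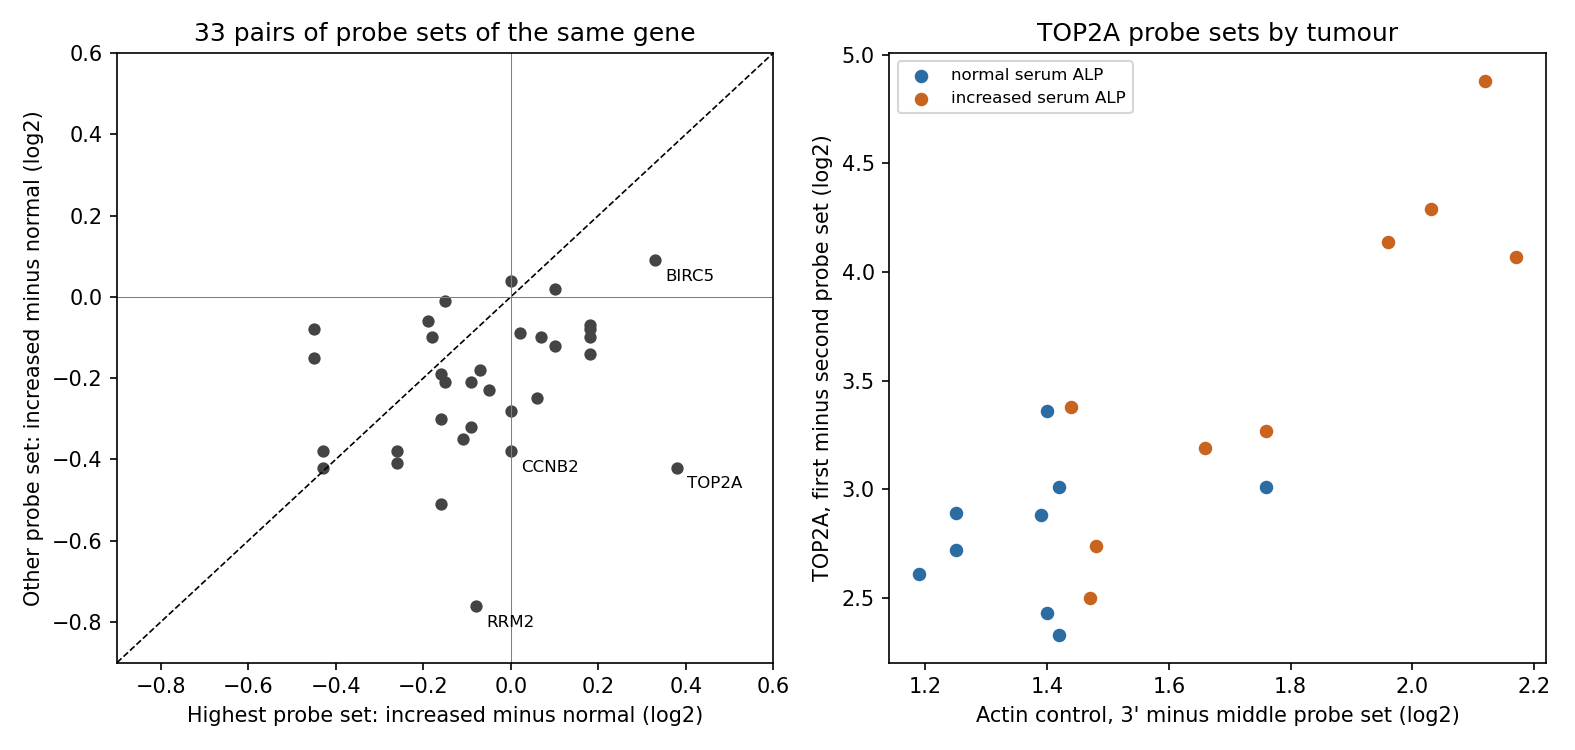
Left, the difference of increased minus normal serum ALP (log2) at the highest probe set of a member and at another probe set of the same gene, with a dashed line of equal differences, below which 25 of 33 pairs lie. Right, the gap between both TOP2A probe sets (log2) against the 3' minus middle difference of the actin control (log2) in 18 tumours, with normal serum ALP in blue and increased in orange.

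Of the members, 7 had their highest value in increased ALP replicate 3, the array with the largest actin difference (2.17) and the brightest BioB spike-in. They were MCM4, TOP2A, BIRC5, KIF2C, UBE2C, FOXM1 and EZH2, or 16.7% of the members, against 8.13% of the other genes tested. Among the other probe sets above the filter, BIRC5 was again highest in that tumour, MCM4 was at rank 2 and TOP2A at rank 5. The part of array quality in these 7 values was not tested.

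Other genes of replication and mitosis followed the member score too, and none was called between the serum ALP groups. Of 50 further genes of replication, 42 were tested and none was called (0 of 42, 15 positive and 27 negative differences). At an unadjusted p under 0.05 there were 2, or 4.76%, against 4.86% of all 10717 genes tested. These were USP1, a deubiquitinase of PCNA, at -0.49 ± 0.19 (SE) and PRIM1, the primase subunit, at -0.41 ± 0.16 (SE), both with an adjusted p of 0.722 in limma. Of 64 further G2/M genes, 52 were tested and none was called (0 of 52, 23 positive and 29 negative). Again 2, or 3.85%, had an unadjusted p under 0.05, a share below that of all genes tested. CENPN, a centromere protein, was at -0.36 ± 0.14 (SE) and CDC25B, a phosphatase that activates CDK1, at -0.27 ± 0.11 (SE), and neither followed the member score (r -0.16 and 0.06). The median r with the member score was 0.69 for the further S phase genes and 0.82 for the further G2/M genes, with DLGAP5, a spindle protein, at 0.97 and NCAPG, a condensin subunit, at 0.96.

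Genes that restrain the cycle had no common direction with the score. Of 18 such genes 9 were tested, and their median r with the member score was -0.02. CDKN1A (p21) had r of 0.50, which was -0.03 without increased ALP replicate 7 and normal ALP replicate 3. RBL2 (p130) had -0.53, and -0.42 without these 2 tumours. RB1 had 0.00 and BTG2 -0.25 (rho -0.60). Of 11 genes of G1, 9 were tested, and their median r was 0.36, with 3 below 0. E2F4 had r of -0.37, CCND2 -0.17 and MYCN -0.03, while MYC had 0.68, CCND3 0.60, CCND1 0.50 and CDK4 0.28. For MYC, CCND3, CCND1 and CDK4 the values without the same 2 tumours were 0.80, 0.46, 0.28 and 0.44. None of either list was called (0 of 9 in each, and 0 at an unadjusted p under 0.05). CDK4 had the smallest p among the G1 genes, with a difference of -0.25 ± 0.12 (SE, adjusted p = 0.823 in limma).

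Outside all lists, the genes whose levels were most like the member score over the 18 tumours were HNRNPA2B1, an RNA-binding protein, at r 0.96, LOC485338 at 0.96, CENPT, a centromere protein, at 0.94, SHCBP1 and MIS18A at 0.93, and SPAG5, LOC475340 and RAD54L at 0.91. HNRNPA2B1 had an SD of 0.25, so it followed the score over a small range. The most opposite were CTSF, a lysosomal protease, LOC609874 and REM1 at -0.87, GAS6, a ligand of the TAM receptors, at -0.86 and TNKS1BP1 at -0.85. Without increased ALP replicate 7 and normal ALP replicate 3, the positive values ran from 0.75 to 0.90 and the negative ones from -0.83 to -0.67.

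Some lists of cell type markers rose or fell with the member score, and others did not. The osteoclast list (4 of 7 genes tested) had r of 0.68 with the member score and the osteoblast list (10 of 11) 0.60, while the endothelial list (8 of 8) had -0.67 and the fibroblast list (7 of 7) -0.61. Without increased ALP replicate 7 and normal ALP replicate 3 these were 0.33, 0.34, -0.60 and -0.56. In normal ALP replicate 3, the osteoclast score was the lowest of all tumours at -2.83 and the neutrophil score at -1.08, and the cartilage and endothelial scores were the highest at 1.55 and 1.01. Other tumours came near these values. Increased ALP replicate 7 had -2.75 (osteoclast) and -0.86 (neutrophil), increased ALP replicate 6 had 1.48 (cartilage) and increased ALP replicate 1 had 0.94 (endothelial). The log2 of the summed signal of the endothelial list ran from 11.12 to 14.12 with normal and from 11.59 to 14.07 with increased ALP, and that of the osteoclast list from 13.33 to 15.79 and from 13.20 to 15.71. For the osteoblast list these ranges were 15.75 to 16.76 and 15.99 to 16.84, and for the fibroblast list 14.70 to 16.19 and 14.53 to 16.28. The lowest deposited log2 value of any probe set was 2.03, so a summed signal could not be 0 and does not show that a cell type was present. CALCR of the osteoclast list was below the filter. Macrophage, T and NK cell, B cell, neutrophil and skeletal muscle lists had r between 0.01 and 0.25. Within the normal and the increased ALP group the macrophage list had 0.39 and -0.60. The skeletal muscle list had -0.18 and 0.48 and the T and NK cell list 0.34 and -0.08, while the B cell and neutrophil lists were positive in both. Without increased ALP replicate 7 and normal ALP replicate 3 the values ran from -0.31 (neutrophil) to 0.32 (B cell), with macrophage at -0.29. The fat list had r of -0.31 and rho of -0.60, and r of -0.59 without those 2 tumours, while the cartilage list went from -0.33 to 0.00. Of 3 measured genes of red cell precursors none was above the filter. The part of cell composition in the spread of the cell division genes was not tested.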

How the data were processed

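Total RNA of 18 tumours was hybridised to canine Affymetrix arrays, with 1 array per tumour. The authors deposited a log2 signal for each of 43035 probe sets. The submitters' processing notes name MAS5, and the summary and normalization steps are not given in the sources used here. After 111 control probe sets were set aside, 16 was added to each linear signal and log2 was taken again. Probe sets with a mean below the 40th percentile (6.15) were left out, and 25754 remained. Gene names came from the platform annotation. Groups were compared with limma 3.58.1 in R 4.3.3 (lmFit, eBayes with trend, Benjamini-Hochberg, threshold 0.05), and TOP2A also by exact permutation. Detection calls were not used, and the number of arrays limits the precision.

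The members, lists and tests were chosen with earlier results of these data known. Full statistics went to TOP2A and, by smallest p, to 5 members in each direction. Other members were named by level, spread, outlying tumours (Dixon's test at 95% within a group of 9) and likeness to the rest, and up to 4 further genes a list by smallest p. A list score is the mean log2 difference from the mean of 18 tumours. Correlations are descriptions with no p. The fit was tested on simulated data. The planned MKI67 difference could not be made and promoter sequences were not used here. The alternatives were offsets of 1 and 64, other filters, quantile normalization, scaling to the 75th percentile, the mean over a gene's probe sets, array weights, no trend, the replicate block, the actin difference as a covariate and leaving out each array. Chosen after seeing the data were the next probe set of a gene, leaving out increased ALP replicates 3 and 6, and the comparison of probe set gaps with actin. Python 3.11.15 with pandas 2.3.3 and matplotlib 3.10.9 was used.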

Additional observations from a re-analysis of the deposited data

Results flagged for a closer look

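Dixon's test within a group of 9 tumours marked 15 of 86 pairs of gene and group, where chance marks about 5%, and members share their tumours. In 14 of them normal ALP replicate 3 was far below the rest of its group. Among S phase genes it was at 8.13 for MCM5 (next tumour 9.97), 8.13 for RRM2 (10.08) and 5.97 for TK1 (7.36). The value of TK1 was below the filter. Among genes of the cyclin, kinase and anaphase steps it was at 7.62 for CCNB2 (9.53), 6.72 for PLK1 (8.17) and 8.25 for CDC20 (9.91). For genes of chromosome structure and the kinetochore it was at 9.48 for TOP2A (11.20), 7.69 for BIRC5 (9.05), 7.78 for CENPA (8.33), 8.27 for NDC80 (9.99) and 6.97 for NUF2 (8.67). For the spindle genes KIF23 and ASPM it was at 6.87 (8.88) and 6.44 (8.39), and for the transcription factor FOXM1 at 6.83 (8.44). The same tumour was marked by its member score of -1.56, where the next tumour of its group was at -0.27, and by its G2/M score of -1.79, where the next was at -0.28.

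The remaining mark was GINS1 in normal ALP replicate 2, which was at 10.82 where the next tumour of its group was at 9.70. No tumour of the increased ALP group was marked for any measured member.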

How the results depend on the processing

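No member was called under 13 alternatives, and no probe set under the 11 run on all probe sets, nor on leaving out any array (limma, 0 each time). At an unadjusted p under 0.05 there were 0 members in each, except 3 without normal ALP replicate 3. The median difference stayed between -0.11 and -0.0239 for the members, -0.14 and -0.0668 for the S phase genes and -0.10 and 0.0373 for the G2/M genes. On leaving out 1 array these ran from -0.27 to 0.0708, from -0.30 to -0.0187 and from -0.27 to 0.0913, the ends set by normal ALP replicates 3 and 2. The SD of the member score was 0.47 to 0.58 under 9 alternatives and 0.40 to 0.56 on leaving out 1 array, and the r of the S phase and G2/M scores 0.97 to 0.98 and 0.95 to 0.98. TOP2A turned to -0.27 with the actin difference as a covariate, -0.0232 with the mean over its probe sets and -0.42 at its next probe set, and ran from 0.11 to 0.53 on leaving out 1 array. With the actin covariate UBE2C was at -0.0196 and EZH2 at -0.0816, and without increased ALP replicates 3 and 6 EZH2 was at -0.00466. NDC80 was at -0.00981 with the mean over its probe sets, -0.0744 at its next probe set and between -0.0654 and 0.34 on leaving out 1 array. The other 301 of 310 values of the 10 named members kept their sign, but part of them could not change. The replicate block, the fit without a trend and the other filters do not alter a gene's difference. UBE2C, EZH2, CCNA2 and TK1 had no second probe set above the filter, so their first was used again. The cause of the sign changes was not tested. The main fit did not take the tissue numbers as pairs. The correlation of same-numbered tumours ran from -0.164 to 0.27 over 9 pairs and was over 0.1 in 4. Of the normal ALP tumours, 0 were closest to the increased ALP tumour of their own number. These values cannot exclude a weak link between same-numbered tumours. The settings planned for MKI67 were not run. With the replicate block 0 members were called. Each number occurs in both groups, so the block cannot change the difference, and TOP2A stayed at 0.38 (adjusted p = 0.926 in limma).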
